A study of Felis catus with 25 samples.

Results

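The interleukin, chemokine and tumour necrosis factor (TNF) family genes of cultured cat corneal fibroblasts were taken as every gene symbol in the count tables that starts with IL, CXCL, CXCR, CCL or CCR followed by a digit, or with TNFSF or TNFRSF, other than IL33 and CXCR4. This rule, which uses names only, found 118 of 13949 symbols. They comprised 27 interleukins, 36 interleukin receptor chains, 17 chemokines, 11 chemokine receptors, 9 TNF family ligands, 16 TNF family receptors, the binding protein IL18BP and the enzyme IL4I1. Of the 118 members, 95 had a count in at least 1 library and 55 passed the filter on low counts and were tested.

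Polyadenylated RNA was sequenced from corneal stromal fibroblasts of the domestic cat (Felis catus) grown on collagen-coated dishes, in 25 libraries that form 5 groups of 5. FB held untreated cells harvested at day 0, quiescent per the labels. TGFb held cells harvested at day 2 after 2 days with transforming growth factor beta 1 (TGFb1) at 1 ng/ml, which turns fibroblasts into contractile myofibroblasts. The day-5 groups had the same 2 days of TGFb1, which was then taken away and replaced for 3 days. Trog received 7.5 uM troglitazone, a ligand of the nuclear receptor PPAR-gamma, and in TrogGW the same 7.5 uM dose was joined by 10 uM GW9662, which blocks that receptor. The UK cells were given 30 uM UK-5099, which blocks the carrier that brings pyruvate into mitochondria. No untreated library of day 2 or day 5 was analysed here, so a drug, the end of TGFb1 and the extra days in culture cannot be told apart in the comparisons with TGFb, nor TGFb1 and 2 days in culture in the comparison with FB. The labels call the libraries biological replicates but name no donors or separate cultures, so the spread that the p-values rest on is that among these libraries and may be technical.

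Cytokines are secreted or membrane-bound messengers, and their receptors are mostly built from a ligand-binding chain and a shared signalling chain. Interleukins of the IL-6 family signal through gp130 (IL6ST) and JAK-STAT proteins, those of the IL-1 and IL-17 families through adaptors that lead to NF-kB, and chemokines through receptors that guide leukocyte migration. TNF family ligands act on receptors that recruit TRAF adaptors or death domains. Some of the receptors named here are decoys that bind a ligand without signalling. In the cornea, stromal fibroblasts answer IL-1 and TNF released from an injured epithelium and make chemokines that draw in white blood cells.

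The libraries held 14.8 to 25.2 M counts. UK replicate 5, the shallowest, stood apart: across genes, its log2(CPM + 1) gave Pearson correlations of 0.837 to 0.855 with the rest of its group, where all remaining pairs of libraries of the same group reached 0.991 or more (CPM, counts per 1000000 counts of the scaled library). It is therefore given on its own below for the members described library by library, and tests of the UK group are given with and without it, while summed counts and group means of UK include it. Of 13 markers of corneal stromal fibroblasts 12 are in the files and all had counts, although THY1 had only 8 to 44 counts per group and COL1A1 went from 61400 CPM in TGFb to 1130 in Trog, 815 in TrogGW and 65000 in UK. Of 16 immune cell markers in the files, 11 had a count in any library, and their summed level was 14 to 17.3 CPM in FB, 21.6 to 30.3 in TGFb, 38.2 to 46.9 in Trog, 36 to 40.8 in TrogGW and 29.6 to 58.1 in UK. The leukocyte markers PTPRC, TYROBP, MS4A1, CD8A and CD163 had 0 counts in all 25 libraries. The epithelial keratins KRT3 and KRT12 were at 0 as well, while the summed epithelial list lay at 7.91 to 10.6 CPM in FB and 3.18 to 5.79 in TrogGW, where PAX6 had 271 counts and GRHL2 33. The vascular list summed to 66.8 to 77.5 CPM in FB, 85 to 89.5 in TGFb and 67 to 84.1 in Trog. It summed to 89.1 to 109 CPM in TrogGW and 38.8 to 185 in UK. Its genes differed in level, with CDH5 at 1 to 6 counts per group. KDR went from 7.23 CPM in TGFb to 47 in TrogGW, and ERG from 78.4 to 51.1. The part of other cells in the results below was not tested, and in bulk RNA a change in the share of a cell type and a change in RNA per cell cannot be told apart.

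Below, levels are CPM, with replicates in the order 1 to 5 or as mean ± SD (n = 5), and changes are log2 fold changes ± SE from edgeR's quasi-likelihood test. Adjusted p-values are Benjamini-Hochberg values over the 10699 genes tested, and a gene is said to rise, fall or change where that value is under 0.05. CPM are not corrected for gene length, so levels are compared between groups and not between genes. The filter can be passed through 1 group of 5 libraries alone. A member scarce elsewhere is then tested because it is high in that group. The medians and counts of calls below carry this selection. The scaling matters here, because with library totals alone the median change over all genes moved on the log2 scale by -0.38 in TGFb against FB, 0.68 in Trog against TGFb, 0.85 in TrogGW against TGFb, 0.17 in TrogGW against Trog, 0.23 in UK against TGFb and -0.46 in UK against Trog. Changes are thus relative to the bulk of genes, and called changes of a member that turned direction with library totals are marked. These numbered 3 in TGFb against FB, 4 in Trog against TGFb, 9 in TrogGW against TGFb, 0 in TrogGW against Trog, 0 in UK against TGFb and 2 in UK against Trog.

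TGFb was compared with FB, from which it differs by both TGFb1 and 2 days in culture. The chemokine CXCL8, the IL-4 receptor chain IL4R, the IL-13 receptor chain IL13RA1 and the OX40 ligand TNFSF4 rose, while the death receptor TNFRSF21, the BAFF receptor TNFRSF13C, the IL-18 inhibitor IL18BP, the IL-33 receptor IL1RL1 and the chemokine CCL17 fell. Of the 55 tested members, 16 rose and 19 fell. That is 63.6% of the members, beside 66.9% of all tested genes (32.1% higher and 34.8% lower). With library totals alone 8 members rose and 27 fell. With all 25 libraries in 1 fit 9 rose, a count whose share over all genes is not given here. Of all called genes 48.1% were higher, or 16.9% with library totals alone. By at least 2-fold, 4 rose and 8 fell, beside 13.2% of all genes in either direction, and the 2 groups did not overlap for 26 members, beside 53.2% of all genes. The median log2 fold change was -0.10 over the 55 members and -0.02 over all tested genes.

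Replacing TGFb1 with troglitazone was followed by rises of the receptor chains IL6ST, IL17RA, IL4R and IL22RA1, the 4-1BB ligand TNFSF9, the herpesvirus entry mediator TNFRSF14 and the low-level cytokines IL6, IL23A and CXCL10, and by falls of the decoy receptors TNFRSF11B and IL13RA2, the cytokine IL34 and the TWEAK receptor TNFRSF12A. Of the 55 tested members, 32 rose and 15 fell in Trog against TGFb. This is 85.5% of the members, close to the 81.5% of all tested genes (42.2% higher and 39.3% lower). Scaled by library totals alone, 43 members rose and 11 fell. Of all called genes 51.8% were higher, or 81.5% with that scaling. By at least 2-fold, 25 rose and 11 fell, beside 29.9% of all genes in either direction. The groups did not overlap for 42 members, beside 70.8% of all genes, and the median log2 fold change was 0.82 over the 55 members and 0.04 over all tested genes. Some members scarce in TGFb passed the filter only through groups where they were high, such as CXCL10 (0 counts in TGFb and 177 in Trog) and IL23A (2 and 366). The filter thus favours rises among scarce members, so this median and these counts cannot by themselves show a shift of the family.

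In TrogGW against TGFb, 32 members rose and 19 fell, 92.7% of those tested beside 86.1% of all genes (46.7% higher and 39.4% lower). When scaled by library totals alone, 38 members rose and 9 fell. Of all called genes 54.3% were higher, or 83.3% with that scaling. The largest rises among members with at least 5 CPM were those of IL1RL1, TNFSF9 and IL11, and the largest falls those of TNFRSF11B, IL34 and IL13RA2. Changes of at least 2-fold were 23 up and 10 down, beside 36.9% of all genes in either direction, and 44 members did not overlap between the groups, beside 76.1% of all genes. The median log2 fold change was 0.53 over the 55 members and 0.09 over all tested genes. This median and the counts above carry the same selection by the filter, as with CXCL14 (0 counts in TGFb and 136 in TrogGW).

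GW9662 was tested by setting TrogGW beside Trog, which share the troglitazone dose and the day. IL11, IL1RL1, TNFRSF12A, IL1RAP, IL10RA and CXCL14 were higher with GW9662, and IL34, CXCL16, TNFRSF11B, IL18BP, IL23A and IL22RA1 were lower. Of these, IL10RA and CXCL14 passed the filter only through TrogGW, the group where they were high. Of the 55 tested members, 16 rose and 23 fell (70.9%, beside 71.7% of all genes, with 36.3% higher and 35.4% lower). Under library totals alone 18 members rose and 18 fell. Of all called genes 50.6% were higher, or 68.2% with that scaling. The number that fell was 15 with all 25 libraries in 1 fit, for which the share over all genes is not given here. By at least 2-fold, 12 rose and 8 fell, beside 15.3% of all genes in either direction. The groups did not overlap for 31 members, beside 54.2% of all genes, and the median log2 fold change was -0.14 over the 55 members and 0.01 over all tested genes.

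With UK-5099, the death ligand TNFSF10 (TRAIL), TNFRSF14, IL27RA, IL1RAP, IL2RB and IL18 rose against TGFb, and TNFRSF11B, CXCL8, TNFRSF12A, IL34, IL20RB and TNFSF4 fell. In UK against TGFb 21 of 55 members rose and 12 fell, 60% beside 50.5% of all genes (28% higher and 22.5% lower). With library totals alone 25 members rose and 11 fell. Of all called genes 55.4% were higher, or 74.2% with that scaling. Without UK replicate 5, 23 rose and 15 fell, beside 71.3% of all genes. Changes of at least 2-fold were 15 up and 8 down, beside 20.3% of all genes in either direction (15 and 9 without UK replicate 5, beside 19.1%). The groups did not overlap for 21 members, beside 34.7% of all genes, or for 32, beside 60.6%, without UK replicate 5. The median log2 fold change was 0.33 over the 55 members and 0.09 over all tested genes, and 0.18 and 0.02 without UK replicate 5.

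The comparison of UK with Trog set the day-5 drugs side by side, with 17 higher and 25 lower in UK (76.4%, beside 61.1% of all genes, with 32.9% higher and 28.2% lower). Without UK replicate 5 these were 19 and 29, beside 75.6% of all genes, and with library totals alone 10 and 29. Of all called genes 53.8% were higher, or 25.1% with that scaling. By at least 2-fold, 11 were higher and 18 lower, beside 27.5% of all genes (9 and 19 without UK replicate 5, beside 23.8%). The groups did not overlap for 32 members, beside 44% of all genes, or for 40, beside 64.1%, without UK replicate 5. TNFSF10, IL13RA2, IL11RA, IL17RD, IL34 and IL17RC were higher in UK, and TNFSF9, TNFRSF8, IL1RL1, IL22RA1, IL23A, IL18BP and IL17RA were lower. The median log2 fold change was -0.33 over the 55 members and 0.04 over all tested genes, and -0.52 and -0.01 without UK replicate 5. The comparisons with TGFb share its libraries, as do those with Trog, and the drugs were used at different concentrations.

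**Figure D1:**
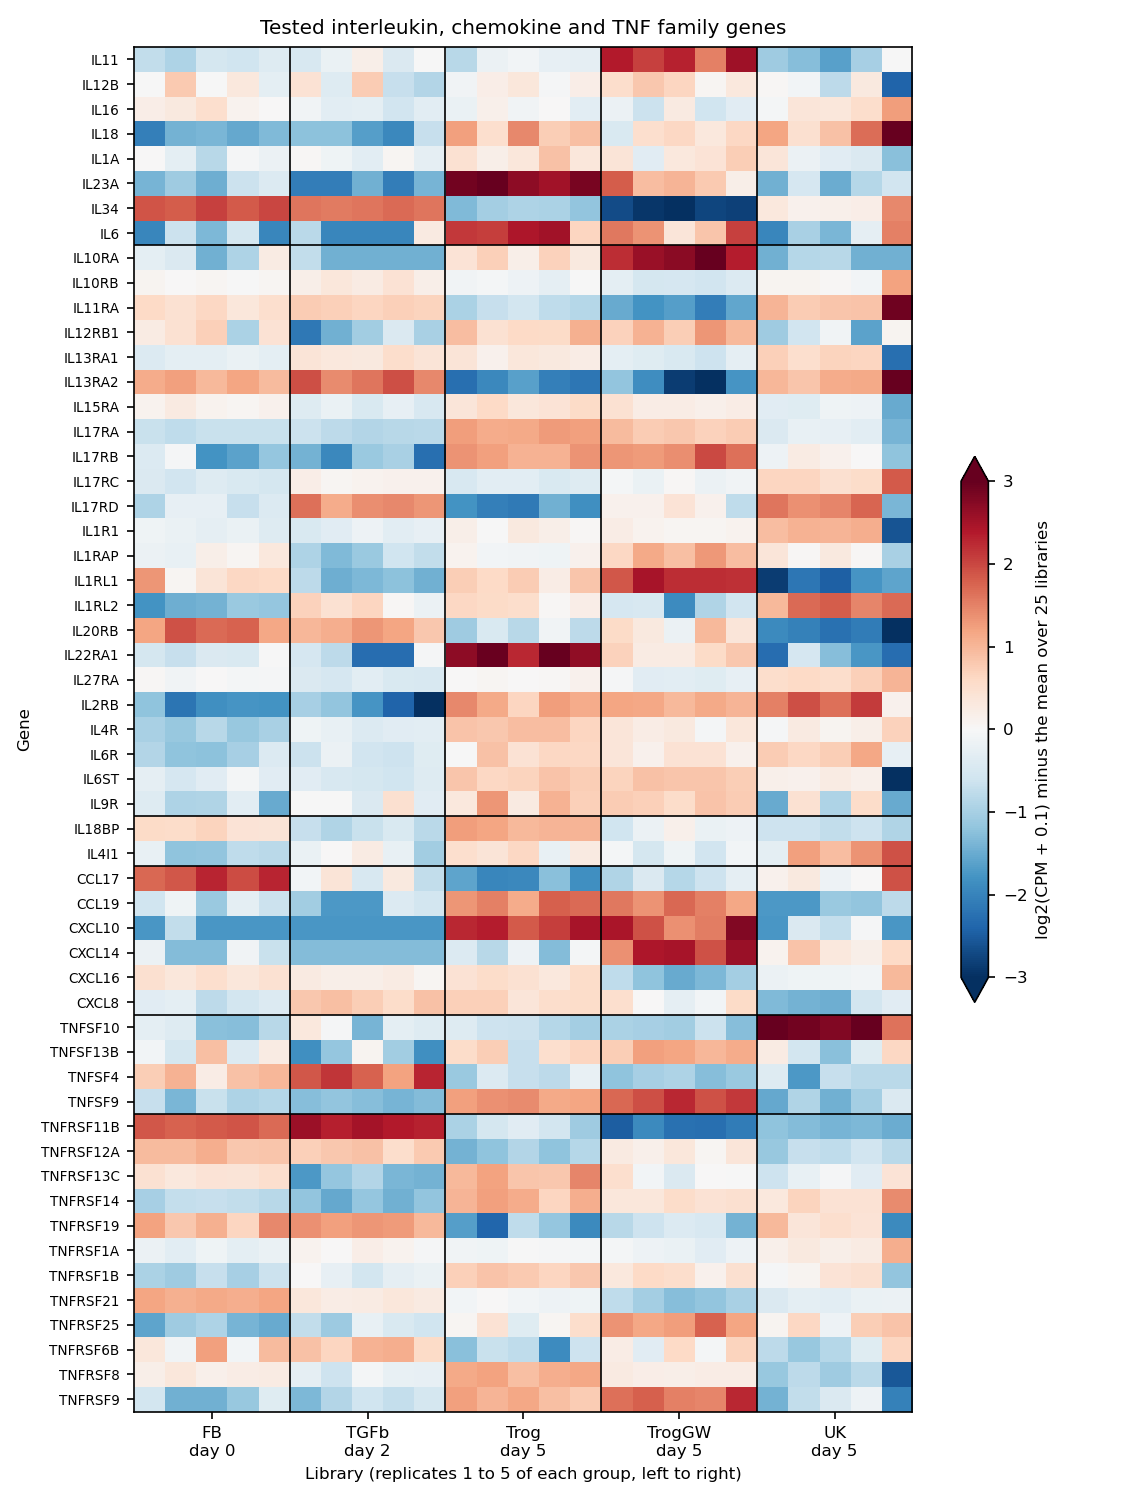
Level of the 55 tested genes (rows, grouped from top to bottom as interleukins, interleukin receptors, IL18BP and IL4I1, chemokines, TNF family ligands and TNF family receptors) in 25 libraries (columns, 5 per group), with colour for log2(CPM + 0.1) minus the mean of the gene over all libraries and values beyond 3 in size sharing the end colours. TNFSF10 is red in the UK columns and blue or pale in the others, IL34 and TNFRSF11B are red in FB and TGFb and blue in Trog and TrogGW, and the last column, UK replicate 5, differs from the other UK columns in many rows.

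Among the interleukins, 4 of 8 tested members rose and 1 fell in Trog against TGFb, and 5 rose and 1 fell in TrogGW against TGFb, where 81.5% and 86.1% of all genes were called in either direction. IL34 is a ligand of the macrophage colony-stimulating factor receptor CSF1R. IL34 stood at 54.9, 52.3, 62.1, 53.3 and 59.6 CPM in the FB libraries and at 45.2, 44.1, 45.2, 48 and 45.2 in the TGFb libraries. IL34 levels at day 5 were 5.88, 7.23, 7.75, 7.65 and 6.5 CPM in Trog and 2.22, 1.89, 1.31, 2.12 and 2.03 in TrogGW. IL34 in UK replicates 1 to 4 was at 18.6, 16.3, 16.4 and 17 CPM, and in UK replicate 5 at 40.3. Every FB and TGFb library lay above every Trog and TrogGW library, Trog and TrogGW did not overlap, and UK replicate 5 lay just below the TGFb range while the other UK libraries lay between TGFb and Trog. IL34 changed by -0.31 ± 0.0684 in TGFb against FB (adjusted p = 0.000272), -2.70 ± 0.0798 in Trog against TGFb (adjusted p = 3.08e-21) and -4.56 ± 0.0952 in TrogGW against TGFb (adjusted p = 1.78e-24). It was lower with GW9662, at -1.87 ± 0.109 (adjusted p = 4.49e-14), and lower in UK than in TGFb, at -1.08 ± 0.186 (adjusted p = 3.69e-05, and -1.41 ± 0.0785 without UK replicate 5). UK lay above Trog, at 1.62 ± 0.192 (1.28 ± 0.086 without UK replicate 5). Its receptor CSF1R, which is also among the immune markers, had 31 counts in FB, 12 in TGFb, 713 in Trog, 581 in TrogGW and 576 in UK, a rise of 5.22 ± 0.28 in Trog against TGFb and of 5.34 ± 0.311 in UK against TGFb (5.32 ± 0.299 without UK replicate 5).

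IL11, a cytokine of the gp130 family that is known as a profibrotic signal in fibroblasts, was high in a single group. IL11 stood at 2.87, 2.47, 3.29, 3.12 and 3.68 CPM in the FB libraries and at 3.4, 4.2, 5.42, 3.51 and 4.79 in the TGFb libraries. IL11 levels at day 5 were 2.66, 4.27, 4.55, 4.03 and 3.96 CPM in Trog and 25.3, 20.1, 24.1, 14 and 28.3 in TrogGW. IL11 in UK replicates 1 to 4 was at 2.24, 1.91, 1.49 and 2.35 CPM, and in UK replicate 5 at 4.76. All 5 TrogGW libraries lay above every other library, while Trog and TGFb overlapped. IL11 was higher in TrogGW than in Trog by 2.51 ± 0.158 (adjusted p = 1.82e-13) and than in TGFb by 2.38 ± 0.166 (adjusted p = 2.91e-13), and Trog did not pass the test against TGFb (-0.14 ± 0.192, adjusted p = 0.518, but 0.55, adjusted p = 0.00701 with library totals alone). In TGFb against FB IL11 rose by 0.48 ± 0.206 (adjusted p = 0.0441), which did not pass with library totals alone (0.10, adjusted p = 0.649) or without any of FB replicates 1 to 4 or TGFb replicates 2, 3 and 5 (0.37 to 0.50). It fell by 0.80 ± 0.247 in UK against TGFb (-1.10 ± 0.227 without UK replicate 5). Its receptor chain IL11RA, which in the RefSeq table overlaps CCL27 (5 counts in TGFb and 16 in TrogGW) and an unnamed gene not analysed here, went the opposite way in TrogGW. IL11RA stood at 99.97, 90.7, 100.4, 83.8 and 93.8 CPM in the FB libraries and at 112, 108, 103, 107 and 104 in the TGFb libraries. IL11RA levels at day 5 were 33.8, 40.9, 44.7, 38.4 and 36.3 CPM in Trog and 22.9, 18.7, 20.7, 15.6 and 22.3 in TrogGW. IL11RA in UK replicates 1 to 4 was at 132, 112, 116 and 119 CPM, and in UK replicate 5 at 497. The TrogGW libraries lay below the Trog libraries and these below FB and TGFb, and UK replicate 5 alone reached a level far above any other library. IL11RA fell by 1.46 ± 0.0786 in Trog against TGFb (adjusted p = 1.45e-15) and fell by 2.42 ± 0.0827 in TrogGW against TGFb (adjusted p = 4.46e-20), and was lower with GW9662, at -0.96 ± 0.0827 (adjusted p = 9.42e-11). The rise in UK against TGFb, 0.87 ± 0.289 (adjusted p = 0.0152), was lost without UK replicate 5 (0.17 ± 0.0791, adjusted p = 0.0607), and the small rise in TGFb against FB, 0.19 ± 0.0758, turned to -0.19 with library totals alone and did not pass without FB replicate 2 or 4 or TGFb replicate 1 or 2 (0.15 to 0.18).

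Apart from IL16, the other tested interleukins were scarce, with no group mean of 5 CPM. IL6, the inflammatory cytokine of the gp130 family, had 8 counts in FB, 8 in TGFb, 194 in Trog, 115 in TrogGW and 19 in UK, 11 of the 19 in UK replicate 5. It rose by 3.90 ± 0.601 in Trog against TGFb (adjusted p = 1.38e-06) and by 3.08 ± 0.663 in TrogGW against TGFb (adjusted p = 0.000125), and was lower in TrogGW than in Trog, at -0.82 ± 0.345 (adjusted p = 0.0351), a call that ended with library totals alone (-0.66, adjusted p = 0.0832). IL23A, the subunit that pairs with IL12B to form IL-23, had 366 counts over the Trog libraries against 2 over the TGFb libraries, a ratio that makes Trog 120.0-fold (95% counting interval 32.9 to 993) higher. In TrogGW IL23A had 101 counts, lower than in Trog, at -1.95 ± 0.23 (adjusted p = 2.95e-08), and the 5 Trog libraries (3.05, 4, 2.64, 2.31 and 2.95 CPM) lay above the 5 TrogGW libraries (1.38, 0.703, 0.757, 0.625 and 0.381). IL12B passed the test in none of the 6 comparisons, with 0.315 to 0.637 CPM as group means, and with library totals alone it did in Trog against TGFb (log2 fold change 0.80, adjusted p = 0.03) and in TrogGW against TGFb (1.39, adjusted p = 0.000193). IL18, an IL-1 family cytokine, rose from 0.173 ± 0.0902 CPM in TGFb to 1.23 ± 0.347 in Trog (2.77 ± 0.348), 0.762 ± 0.226 in TrogGW (2.08 ± 0.376) and 2.9 ± 3.47 in UK (3.89 ± 0.641, and 2.92 ± 0.386 without UK replicate 5). UK replicate 5 held 9.06 CPM of it, beside 1.42, 0.833, 1.13 and 2.03 in the other UK libraries, and without that library UK and Trog no longer differed by the test (0.15 ± 0.248, adjusted p = 0.592). IL1A, an alarmin of the IL-1 family, rose in Trog (0.64 ± 0.226) and TrogGW (0.50 ± 0.228) against TGFb, and overlaps IL36G in the RefSeq table, which was not analysed here. IL16, a chemoattractant of CD4+ cells, went from 6.18 ± 0.867 CPM in FB to 4.19 ± 0.476 in TGFb (-0.55 ± 0.156) and 7.77 ± 2.92 in UK (against TGFb 0.87 ± 0.202, and 0.64 ± 0.164 without UK replicate 5).

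The interleukin receptor chains made up the largest group, and in Trog against TGFb 15 of 23 tested members rose and 6 fell, beside 42.2% of all genes higher and 39.3% lower. IL6ST encodes gp130, the signalling chain shared by the receptors of IL-6, IL-11, LIF and oncostatin M. IL6ST stood at 263, 225, 253, 307 and 253 CPM in the FB libraries and at 252, 228, 219.7, 212 and 242 in the TGFb libraries. IL6ST levels at day 5 were 565, 494, 504, 576 and 528 CPM in Trog and 504, 586, 566, 565 and 534 in TrogGW. IL6ST in UK replicates 1 to 4 was at 356, 351, 381 and 355 CPM, and in UK replicate 5 at 14.2. Trog and TrogGW lay above every other library, UK replicates 1 to 4 lay between them and FB and TGFb, and UK replicate 5 was the lowest of all. IL6ST rose by 1.21 ± 0.0698 in Trog against TGFb (adjusted p = 6.5e-15) and by 1.25 ± 0.0698 in TrogGW against TGFb (adjusted p = 2.12e-15), with 0.05 ± 0.0683 between TrogGW and Trog (adjusted p = 0.554, and 0.22, adjusted p = 0.0059 with library totals alone). UK against TGFb did not pass with all libraries (0.34 ± 0.399, adjusted p = 0.505) and did without UK replicate 5 (0.64 ± 0.0705, adjusted p = 2.43e-09). Among the ligand-binding partners, IL6R went from 2.02 ± 0.315 CPM in TGFb to 4.12 ± 0.893 in Trog (1.03 ± 0.171), 3.52 ± 0.391 in TrogGW (0.80 ± 0.173) and 4.56 ± 1.45 in UK (1.19 ± 0.21, and 1.34 ± 0.179 without UK replicate 5). IL27RA, which forms the IL-27 receptor with gp130, was highest in UK. IL27RA stood at 66.2, 60.7, 65.5, 62.6 and 63 CPM in the FB libraries and at 48.5, 46, 51.9, 47.5 and 46.4 in the TGFb libraries. IL27RA levels at day 5 were 65.4, 67.7, 65.4, 67 and 70.8 CPM in Trog and 63.5, 51.7, 52.2, 50.9 and 55.1 in TrogGW. IL27RA in UK replicates 1 to 4 was at 93.4, 98, 94.3 and 106 CPM, and in UK replicate 5 at 132. No UK library overlapped another group. IL27RA rose by 1.12 ± 0.0852 in UK against TGFb (adjusted p = 1.29e-10, and 1.03 ± 0.0578 without UK replicate 5), and by 0.48 ± 0.0549 in Trog against TGFb and 0.19 ± 0.0551 in TrogGW against TGFb, after -0.40 ± 0.0554 in TGFb against FB.

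Of the IL-1 receptor family, IL1R1 binds IL-1 and IL1RAP is its accessory chain, while IL1RL1 (ST2) binds IL-33 and IL1RL2 binds IL-36. IL1R1 stood at 33.3, 31.4, 29.9, 31.7 and 27.9 CPM in the FB libraries and at 26.6, 28.9, 32.8, 29.3 and 30.5 in the TGFb libraries. IL1R1 levels at day 5 were 41.2, 36.2, 44.4, 41 and 37.3 CPM in Trog and 42.5, 38.9, 37.6, 37.8 and 38.9 in TrogGW. IL1R1 in UK replicates 1 to 4 was at 69.4, 75.3, 73.2 and 77 CPM, and in UK replicate 5 at 5.95. UK replicates 1 to 4 lay above every other library and UK replicate 5 below every other. IL1R1 rose by 1.03 ± 0.332 in UK against TGFb (adjusted p = 0.0128, and 1.32 ± 0.0648 without UK replicate 5), a call that ended with only the 2 groups in the fit (adjusted p = 0.151). It also rose by 0.43 ± 0.0645 in Trog against TGFb and 0.40 ± 0.0644 in TrogGW against TGFb. IL1RAP stood at 3.23, 3.12, 4.13, 3.81 and 4.62 CPM in the FB libraries and at 1.88, 1.4, 1.64, 2.39 and 2.18 in the TGFb libraries. IL1RAP levels at day 5 were 3.95, 3.46, 3.41, 3.32 and 4.01 CPM in Trog and 5.71, 8.18, 6.94, 9.16 and 7.06 in TrogGW. IL1RAP in UK replicates 1 to 4 was at 4.76, 3.77, 4.53 and 3.79 CPM, and in UK replicate 5 at 1.83. IL1RAP was highest in TrogGW and lowest in TGFb, UK replicates 1 to 4 overlapped FB, and UK replicate 5 lay in the TGFb range. It fell by 1.01 ± 0.17 in TGFb against FB (adjusted p = 9.61e-06) and rose by 0.94 ± 0.167 in Trog against TGFb, 1.98 ± 0.154 in TrogGW against TGFb and 1.01 ± 0.2 in UK against TGFb (1.16 ± 0.171 without UK replicate 5), and TrogGW exceeded Trog by 1.04 ± 0.129 (adjusted p = 7.74e-08). IL1RL1 stood at 2.69, 1.06, 1.36, 1.62 and 1.59 CPM in the FB libraries and at 0.546, 0.304, 0.338, 0.373 and 0.311 in the TGFb libraries. IL1RL1 levels at day 5 were 1.76, 1.58, 1.79, 1.19 and 1.89 CPM in Trog and 3.98, 6.07, 5.06, 5.1 and 4.99 in TrogGW. IL1RL1 in UK replicates 1 to 4 was at 0.0547, 0.147, 0.103 and 0.226 CPM, and in UK replicate 5 at 0.275. The TrogGW libraries of IL1RL1 lay above all others, and each UK library lay below each TGFb library. IL1RL1 fell by 2.12 ± 0.29 in TGFb against FB (adjusted p = 4.08e-07), rose by 2.11 ± 0.283 in Trog against TGFb (adjusted p = 1.45e-07) and by 3.73 ± 0.24 in TrogGW against TGFb (adjusted p = 5.16e-14), exceeded Trog in TrogGW by 1.63 ± 0.167 (adjusted p = 2.53e-09), and fell by 1.25 ± 0.401 in UK against TGFb (adjusted p = 0.0122, and -1.41 ± 0.496 without UK replicate 5). IL1RL2, the next gene to IL1RL1 and IL1R1 in the RefSeq table, did not share that order: it rose from 0.273 ± 0.0659 CPM in FB to 1.15 ± 0.314 in TGFb (2.04 ± 0.315), was at 0.459 ± 0.181 in TrogGW, lower than in Trog, at -1.36 ± 0.25, and reached 2.75 ± 0.586 in UK (against TGFb 1.24 ± 0.228, and 1.21 ± 0.228 without UK replicate 5). Without TGFb replicate 1 the UK call of IL1RL1 ended (-1.07). The decoy IL1R2 of the same cluster was not tested and had 43 counts in TrogGW, 16 in Trog and 3 in UK.

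IL17RA is the common chain of the IL-17 receptors and pairs with IL17RC for IL-17A and with IL17RB for IL-25. In the RefSeq table IL17RA overlaps an unnamed protein-coding gene that was not analysed here. IL17RA stood at 36.7, 34.6, 37, 37.1 and 36.7 CPM in the FB libraries and at 37.7, 33.7, 31.8, 32.8 and 33.5 in the TGFb libraries. IL17RA levels at day 5 were 140.2, 127, 130.0, 142 and 137 CPM in Trog and 113, 100.2, 104, 94.2 and 99.5 in TrogGW. IL17RA in UK replicates 1 to 4 was at 43.3, 50.5, 49.3 and 47.1 CPM, and in UK replicate 5 at 22.3. Trog and TrogGW did not overlap each other or any other group, and UK replicate 5 was the lowest library. IL17RA rose by 1.99 ± 0.0543 in Trog against TGFb (adjusted p = 5.58e-22) and by 1.59 ± 0.0541 in TrogGW against TGFb (adjusted p = 3.96e-20), was lower with GW9662, at -0.40 ± 0.0497, and was lower in UK than in Trog, at -1.67 ± 0.137 (adjusted p = 3.02e-10, and -1.51 ± 0.0576 without UK replicate 5). IL17RC stood at 41.1, 37.3, 42.3, 40.1 and 38.4 CPM in the FB libraries and at 63.4, 57.8, 59.6, 60.2 and 60.4 in the TGFb libraries. IL17RC levels at day 5 were 39.3, 44.1, 44.2, 40.4 and 42 CPM in Trog and 53, 48.4, 56.8, 49.2 and 51.5 in TrogGW. IL17RC in UK replicates 1 to 4 was at 86.9, 86.6, 77 and 80.7 CPM, and in UK replicate 5 at 199. IL17RC was higher in each UK library than in any other library, and UK replicate 5 lay far above the rest. It rose by 0.60 ± 0.0529 in TGFb against FB (adjusted p = 1.62e-10) and by 0.81 ± 0.174 in UK against TGFb (adjusted p = 0.000435, and 0.46 ± 0.0544 without UK replicate 5), and fell by 0.52 ± 0.0521 in Trog against TGFb and fell by 0.22 ± 0.0515 in TrogGW against TGFb. With library totals alone these falls turned to rises of 0.16 and 0.63. IL17RB was at 0.291 ± 0.137 CPM in TGFb and rose to 2.38 ± 0.253 in Trog (3.02 ± 0.318), 3.05 ± 0.668 in TrogGW (3.39 ± 0.305) and 0.898 ± 0.318 in UK (1.68 ± 0.383, and 1.83 ± 0.372 without UK replicate 5). IL17RB overlaps CHDH in the RefSeq table, and CHDH had 906 counts in TGFb and 3850 in Trog. Whether reads of one were counted for the other was not tested. IL17RD, which despite its symbol is known as an inhibitor of FGF signalling, rose from 1.1 ± 0.234 CPM in FB to 4.32 ± 0.59 in TGFb (1.97 ± 0.192), fell to 0.374 ± 0.0931 in Trog (-3.50 ± 0.221) and 1.64 ± 0.451 in TrogGW (-1.39 ± 0.172), and stood at 4.98, 4.26, 4.53 and 5.55 CPM in UK replicates 1 to 4 and 0.549 in UK replicate 5.

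IL4R is the signalling chain for IL-4 and IL-13, IL13RA1 its partner for IL-13, and IL13RA2 a decoy that binds IL-13. IL4R stood at 35, 31, 38.5, 30.9 and 34.6 CPM in the FB libraries and at 62.6, 58.4, 51.1, 54.1 and 54.7 in the TGFb libraries. IL4R levels at day 5 were 123, 119, 131, 130.2 and 106 CPM in Trog and 88.7, 80.3, 84.3, 65.2 and 86.4 in TrogGW. IL4R in UK replicates 1 to 4 was at 66.4, 82.8, 72 and 76.8 CPM, and in UK replicate 5 at 110.2. FB was the lowest group and Trog the highest, with the only overlap of Trog at UK replicate 5. IL4R rose by 0.73 ± 0.0805 in TGFb against FB (adjusted p = 1.05e-08), by 1.12 ± 0.0764 in Trog against TGFb (adjusted p = 2.53e-13), by 0.53 ± 0.0766 in TrogGW against TGFb and by 0.54 ± 0.114 in UK against TGFb (0.41 ± 0.0828 without UK replicate 5), and was lower with GW9662, at -0.59 ± 0.0737 (adjusted p = 7.28e-08). IL13RA2 stood at 13.7, 14.9, 12.5, 14.4 and 12.2 CPM in the FB libraries and at 24.6, 17.1, 19.4, 24.5 and 17.4 in the TGFb libraries. IL13RA2 levels at day 5 were 1.25, 1.58, 1.99, 1.46 and 1.34 CPM in Trog and 2.72, 1.67, 0.797, 0.486 and 1.78 in TrogGW. IL13RA2 in UK replicates 1 to 4 was at 12.7, 11.3, 13.8 and 14 CPM, and in UK replicate 5 at 61.3. The decoy fell in every Trog and TrogGW library below every library of the other groups, and UK replicate 5 held far more than the other UK libraries. IL13RA2 fell by 3.75 ± 0.211 in Trog against TGFb (adjusted p = 3.87e-15) and fell by 3.79 ± 0.21 in TrogGW against TGFb (adjusted p = 1.92e-15), and was -0.05 ± 0.281 between TrogGW and Trog (adjusted p = 0.884, and 0.11, adjusted p = 0.715 with library totals alone). Its rise of 0.60 ± 0.165 in TGFb against FB did not pass with library totals alone (0.22, adjusted p = 0.215). UK against TGFb did not pass (0.12 ± 0.376, adjusted p = 0.818), and without UK replicate 5 it changed by -0.66 ± 0.169, adjusted p = 0.000899. IL13RA1 rose by 0.67 ± 0.0619 in TGFb against FB and fell by 0.77 ± 0.0616 in TrogGW against TGFb, which turned to 0.08, adjusted p = 0.226 with library totals alone. Without UK replicate 5 IL13RA1 rose in UK against TGFb (0.25 ± 0.064, adjusted p = 0.000982).

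Among the receptor chains of the IL-10 family, IL22RA1, the IL-22 receptor chain, was at 3.05, 3.69, 2.23, 3.84 and 2.99 CPM in Trog and 0.689, 0.481, 0.478, 0.625 and 0.761 in TrogGW, and at most 0.385 in any library of FB, TGFb or UK. It rose by 4.24 ± 0.336 in Trog against TGFb (adjusted p = 5.79e-12) and was lower with GW9662, at -2.38 ± 0.232 (adjusted p = 9.19e-10). IL10RA, the ligand-binding chain for IL-10, had 9 counts in FB, 1 in TGFb, 34 in Trog, 208 in TrogGW and 2 in UK, and TrogGW exceeded Trog by 2.49 ± 0.279 (adjusted p = 1.17e-08). It passed the filter only through its TrogGW counts, so this test is no independent support for that difference. IL10RA is known from leukocytes, and the marker PTPRC was at 0 in these libraries. The shared chain IL10RB gave 0.24 ± 0.0582 in TGFb against FB, -0.39 ± 0.058 in Trog and -0.74 ± 0.0584 in TrogGW against TGFb, and these turned to -0.14, 0.29 and 0.11 with library totals alone. Its excess of 0.47 in UK over Trog turned to -0.03 with that scaling and was 0.14 without UK replicate 5. IL20RB, a receptor chain for IL-20 and IL-24, fell from 2.44 ± 0.332 CPM in TGFb to 0.683 ± 0.21 in Trog (-1.81 ± 0.242) and 0.15 ± 0.0871 in UK (-3.86 ± 0.33, and -3.67 ± 0.335 without UK replicate 5). In TrogGW IL20RB was at 1.54 ± 0.478 CPM, and its change of -0.65 ± 0.211 against TGFb turned to 0.20, adjusted p = 0.374 with library totals alone. Of the IL-2 and IL-15 receptor chains, IL2RB rose from 0.182 ± 0.152 CPM in TGFb to 1.93 ± 0.388 in Trog (3.33 ± 0.32), 1.88 ± 0.124 in TrogGW (3.29 ± 0.32) and 2.69 ± 1.12 in UK (3.85 ± 0.389, and 4.04 ± 0.308 without UK replicate 5). IL15RA fell by 0.49 ± 0.082 in TGFb against FB and rose by 0.82 ± 0.0794 in Trog against TGFb and 0.62 ± 0.0797 in TrogGW against TGFb, and overlaps FBH1, which had 12054 counts in TGFb and 15693 in Trog. IL12RB1, shared by IL-12 and IL-23, fell by 2.02 ± 0.513 in TGFb against FB and rose by 2.59 ± 0.46 in Trog against TGFb and 2.88 ± 0.439 in TrogGW against TGFb, and IL9R rose by 1.16 ± 0.395 in Trog against TGFb and 1.07 ± 0.396 in TrogGW against TGFb.

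IL18BP is a secreted inhibitor that binds IL-18. IL18BP stood at 14.4, 14.2, 15.5, 12.9 and 12.6 CPM in the FB libraries and at 6, 5.11, 6.04, 7.09 and 5.54 in the TGFb libraries. IL18BP levels at day 5 were 23.1, 22.2, 19.2, 19.9 and 19.9 CPM in Trog and 6.4, 8.55, 10.8, 8.47 and 8.76 in TrogGW. IL18BP in UK replicates 1 to 4 was at 6.24, 6.32, 5.81 and 6.27 CPM, and in UK replicate 5 at 5.12. Trog was the highest group, FB the next, and TGFb, TrogGW and UK the lower ones. IL18BP fell by 1.23 ± 0.113 in TGFb against FB (adjusted p = 3.55e-10), rose by 1.81 ± 0.109 in Trog against TGFb (adjusted p = 1.57e-14) and by 0.53 ± 0.116 in TrogGW against TGFb, and was lower with GW9662, at -1.28 ± 0.0979 (adjusted p = 9.06e-12). UK against TGFb gave 0.01 ± 0.119 (adjusted p = 0.97, and 0.06 ± 0.124, adjusted p = 0.703 without UK replicate 5). IL4I1, a secreted amino acid oxidase that only shares the prefix, rose in UK against TGFb from 0.308 ± 0.12 to 0.951 ± 0.498 CPM (1.54 ± 0.36, and 1.33 ± 0.357 without UK replicate 5). In the RefSeq table IL4I1 overlaps ATF5 and NUP62, which were not analysed here.

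**Figure D2:**
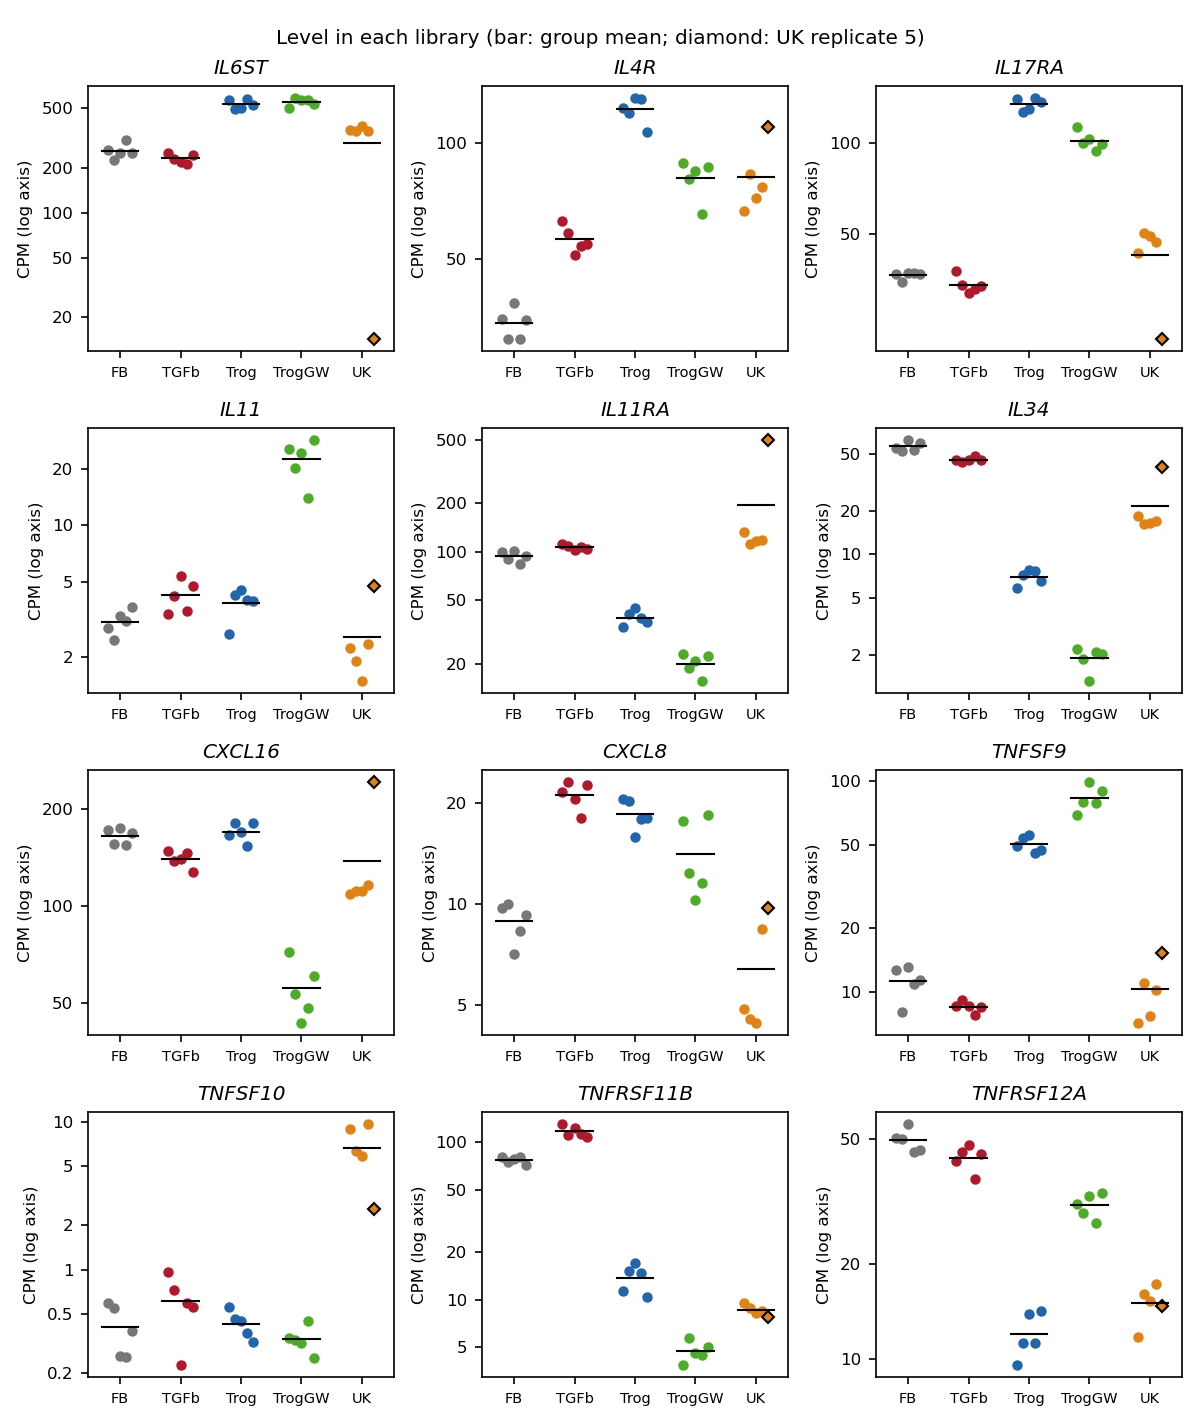
CPM in each library (points, log axis, replicates 1 to 5 from left to right within a group) with the group mean (bar) for 12 genes, and UK replicate 5 drawn as a diamond with a black edge. IL11 is raised in the TrogGW libraries alone and TNFSF10 in the UK libraries alone, and the diamond lies apart from the other UK points for IL6ST, IL17RA, IL11RA, IL34 and CXCL16.

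Of 17 chemokines, 6 were tested, and of 11 chemokine receptors, none passed the filter. CXCL8 (IL-8), which draws in neutrophils, and CXCL16, a membrane-bound ligand of CXCR6, were the members above 5 CPM. CXCL8 stood at 9.73, 10.02, 7.11, 8.34 and 9.29 CPM in the FB libraries and at 21.5, 23, 20.5, 18 and 22.6 in the TGFb libraries. CXCL8 levels at day 5 were 20.4, 20.2, 15.8, 17.9 and 18.1 CPM in Trog and 17.6, 12.4, 10.3, 11.6 and 18.4 in TrogGW. CXCL8 in UK replicates 1 to 4 was at 4.87, 4.56, 4.42 and 8.44 CPM, and in UK replicate 5 at 9.7. TGFb and FB did not overlap, TrogGW spread from just above FB into the Trog and TGFb ranges, and UK lay within or below the FB range. CXCL8 rose by 1.25 ± 0.135 in TGFb against FB (adjusted p = 6.59e-09) and fell by 1.74 ± 0.201 in UK against TGFb (adjusted p = 1.3e-07, and -1.91 ± 0.172 without UK replicate 5). It was -0.20 ± 0.124 in Trog against TGFb (adjusted p = 0.146, and 0.49, adjusted p = 0.000408 with library totals alone). The fall in TrogGW against TGFb, -0.60 ± 0.126, turned to 0.25, adjusted p = 0.0489 with library totals alone. CXCL16 stood at 172, 156, 174, 155 and 168 CPM in the FB libraries and at 148, 138, 139, 146 and 128 in the TGFb libraries. CXCL16 levels at day 5 were 166, 180.2, 169, 154 and 180.3 CPM in Trog and 72.1, 53.2, 43.2, 48 and 60.8 in TrogGW. CXCL16 in UK replicates 1 to 4 was at 109, 111, 111 and 116 CPM, and in UK replicate 5 at 242. TrogGW was the lowest group without overlap, and UK replicate 5 was the highest library of all while the other UK libraries lay below TGFb. CXCL16 was lower with GW9662, at -1.61 ± 0.0883 (adjusted p = 1.16e-14) and lower in TrogGW than in TGFb, at -1.33 ± 0.0887 (adjusted p = 1.07e-13), and it rose slightly in Trog (0.28 ± 0.0857). In UK against TGFb it did not pass (-0.02 ± 0.171, adjusted p = 0.934, and 0.17, adjusted p = 0.307 with library totals alone) and fell without UK replicate 5 (-0.32 ± 0.0881, adjusted p = 0.00191). Its receptor CXCR6 had 0 counts in all libraries.

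The other 4 tested chemokines had group means below 3 CPM. CXCL10, an interferon-induced chemokine for T cells, had 2 counts in FB, 0 in TGFb, 177 in Trog, 172 in TrogGW and 10 in UK, so that Trog was at least 38.6-fold and TrogGW at least 35.2-fold higher than TGFb, taking 3 counts over a group as the floor. Its genomic neighbours CXCL9 and CXCL11, which share interferon induction, had 1 count each in all 25 libraries. ART3, which overlaps CXCL10 in the RefSeq table, had 1 count in Trog and 4 in TrogGW. CXCL14, a chemokine of epithelia and fibroblasts, had 0 counts in TGFb, 9 in Trog and 136 in TrogGW, at least 27.8-fold higher in TrogGW than in TGFb and higher than in Trog by 3.73 ± 0.456 (adjusted p = 1.68e-07). It passed the filter only through TrogGW (14, 33, 32, 24 and 33 counts), the group where it was high. The test against Trog is therefore no independent support for that difference. CCL19, a lymphoid homing chemokine, had 5 counts in TGFb, 103 in Trog, 107 in TrogGW and 3 in UK, rising by 3.63 ± 0.439 in Trog against TGFb and 3.59 ± 0.439 in TrogGW against TGFb. CCL17, a ligand of CCR4, was highest in FB at 2.15, 2.42, 3.24, 2.56 and 3.24 CPM, fell by 2.29 ± 0.225 in TGFb against FB (adjusted p = 1.14e-09) and fell by 2.21 ± 0.381 in Trog against TGFb, and was higher in TrogGW than in Trog by 1.58 ± 0.383.

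Of 9 TNF family ligands, 4 were tested. TNFSF9 is the ligand of the costimulatory receptor 4-1BB. TNFSF9 stood at 12.7, 7.96, 13.1, 10.8 and 11.3 CPM in the FB libraries and at 8.49, 9.13, 8.52, 7.76 and 8.4 in the TGFb libraries. TNFSF9 levels at day 5 were 49.1, 54, 55.4, 45.4 and 47 CPM in Trog and 68.9, 79.3, 99, 78.6 and 89.9 in TrogGW. TNFSF9 in UK replicates 1 to 4 was at 7.06, 11, 7.61 and 10.2 CPM, and in UK replicate 5 at 15.3. The TrogGW libraries lay above the Trog libraries and both above all others, with UK replicates 1 to 4 overlapping FB and TGFb and UK replicate 5 just above them. TNFSF9 rose by 2.56 ± 0.109 in Trog against TGFb (adjusted p = 7.19e-18) and by 3.29 ± 0.108 in TrogGW against TGFb (adjusted p = 1.77e-20), and TrogGW exceeded Trog by 0.73 ± 0.0877 (adjusted p = 4.21e-08). It fell slightly in TGFb against FB (-0.39 ± 0.123) and was 0.26 ± 0.164 in UK against TGFb (adjusted p = 0.192, with 0.47, adjusted p = 0.00939 with library totals alone and 0.09, adjusted p = 0.592 without UK replicate 5). TNFRSF9, the 4-1BB receptor itself, went from 0.138 ± 0.0493 CPM in TGFb to 0.734 ± 0.105 in Trog (2.37 ± 0.363) and 1.3 ± 0.334 in TrogGW (3.18 ± 0.327), with 0.81 ± 0.208 between these 2 groups. TNFSF10 (TRAIL) is a ligand of death receptors. TNFSF10 stood at 0.597, 0.554, 0.261, 0.257 and 0.385 CPM in the FB libraries and at 0.97, 0.73, 0.226, 0.597 and 0.56 in the TGFb libraries. TNFSF10 levels at day 5 were 0.558, 0.462, 0.447, 0.373 and 0.322 CPM in Trog and 0.345, 0.333, 0.319, 0.451 and 0.254 in TrogGW. TNFSF10 in UK replicates 1 to 4 was at 8.92, 6.32, 5.81 and 9.61 CPM, and in UK replicate 5 at 2.56. All 5 UK libraries lay above every library of the other groups, and UK replicate 5 was the lowest of the 5. TNFSF10 rose by 3.44 ± 0.312 in UK against TGFb (adjusted p = 2.57e-09, and 3.63 ± 0.229 without UK replicate 5) and was higher than in Trog by 3.94 ± 0.309 (adjusted p = 1.3e-10, and 4.13 ± 0.222 without UK replicate 5). The fall in TrogGW against TGFb (-0.82 ± 0.322, adjusted p = 0.0202) was 0.02 with library totals alone and ended without TGFb replicate 1 (-0.59) or 2 (-0.75). TNFSF4, the OX40 ligand, rose by 1.20 ± 0.221 in TGFb against FB (adjusted p = 3.19e-05), from 0.757 ± 0.176 to 1.74 ± 0.483 CPM. It fell by 2.96 ± 0.265 in Trog against TGFb, fell by 3.69 ± 0.288 in TrogGW against TGFb and fell by 3.27 ± 0.287 in UK against TGFb (-3.28 ± 0.322 without UK replicate 5), below FB in every Trog, TrogGW and UK library, and its receptor TNFRSF4 had 1 count in all. TNFSF13B (BAFF) fell by 1.66 ± 0.642 in TGFb against FB and rose by 2.07 ± 0.586 in Trog against TGFb and 2.82 ± 0.525 in TrogGW against TGFb, at group means of 0.0835 CPM in TGFb to 0.651 in TrogGW.

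TNFRSF11B encodes osteoprotegerin, a secreted decoy for the ligands RANKL (TNFSF11) and TRAIL. TNFRSF11B stood at 80.1, 74.5, 77.8, 80.8 and 71.3 CPM in the FB libraries and at 130.2, 111, 124, 113 and 108 in the TGFb libraries. TNFRSF11B levels at day 5 were 11.3, 15.2, 17.2, 14.8 and 10.4 CPM in Trog and 3.83, 5.7, 4.58, 4.44 and 4.99 in TrogGW. TNFRSF11B in UK replicates 1 to 4 was at 9.47, 8.87, 8.28 and 8.53 CPM, and in UK replicate 5 at 7.78. TGFb was the highest group and TrogGW the lowest, and Trog and UK both lay far below FB. TNFRSF11B rose by 0.61 ± 0.0853 in TGFb against FB (adjusted p = 6e-07) and fell by 3.08 ± 0.0963 in Trog against TGFb (adjusted p = 9.57e-21), fell by 4.64 ± 0.109 in TrogGW against TGFb (adjusted p = 1.94e-23) and fell by 3.77 ± 0.129 in UK against TGFb (adjusted p = 1.4e-16, and -3.74 ± 0.11 without UK replicate 5), with TrogGW lower than Trog, at -1.56 ± 0.117 (adjusted p = 6.43e-12). Of its partners, TNFSF11 had 6 counts in all and its receptor TNFRSF11A (RANK) had 22 counts in TrogGW, 8 in Trog and 1 in TGFb. TNFRSF12A (Fn14) is the receptor of TWEAK. TNFRSF12A stood at 50.5, 49.9, 55.7, 45.4 and 46 CPM in the FB libraries and at 42.6, 45.4, 48, 37.4 and 44.7 in the TGFb libraries. TNFRSF12A levels at day 5 were 9.58, 11.3, 14, 11.3 and 14.3 CPM in Trog and 31.1, 29.1, 33, 27.1 and 33.6 in TrogGW. TNFRSF12A in UK replicates 1 to 4 was at 11.8, 16.1, 15.3 and 17.3 CPM, and in UK replicate 5 at 14.8. TrogGW lay between the high FB and TGFb libraries and the low Trog and UK libraries, without overlap. TNFRSF12A fell by 1.86 ± 0.092 in Trog against TGFb (adjusted p = 2.21e-16) and fell by 1.53 ± 0.115 in UK against TGFb (adjusted p = 1.08e-10, and -1.52 ± 0.105 without UK replicate 5), and was higher with GW9662 by 1.35 ± 0.0911 (adjusted p = 7.65e-13). Its change of -0.51 ± 0.0849 in TrogGW against TGFb turned to a rise of 0.35, adjusted p = 0.000392 with library totals alone, and its excess of 0.32 ± 0.114 in UK over Trog turned to -0.13, adjusted p = 0.327. The decoy TNFRSF6B went from 1.08 ± 0.182 CPM in TGFb to 0.232 ± 0.106 in Trog (-2.20 ± 0.363) and 0.677 ± 0.225 in TrogGW, higher than Trog by 1.52 ± 0.367, while its change of -0.68 ± 0.295 in TrogGW against TGFb turned to 0.17, adjusted p = 0.581 with library totals alone. TNFRSF6B overlaps ARFRP1 in the RefSeq table, which had 2665 counts in TGFb and 5036 in Trog.

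The TNF receptors proper differed in response. TNFRSF1A, the widespread TNF receptor with a death domain, had group means of 71.4 CPM in FB, 88.1 in TGFb, 79.4 in Trog, 73.8 in TrogGW and 113 in UK, and its falls of -0.15 ± 0.0522 in Trog and -0.26 ± 0.0522 in TrogGW against TGFb turned to 0.53 and 0.59 with library totals alone. Its rise of 0.30 in TGFb against FB turned to -0.07 with that scaling. UK replicate 5 held 179 CPM of it, beside 93 to 102 in the other UK libraries, and its rise in UK against TGFb was 0.36 with that library and 0.14 without it. TNFRSF1B stood at 1.85, 1.71, 2.25, 1.79 and 2.31 CPM in the FB libraries and at 3.7, 3.1, 2.48, 3.06 and 3.17 in the TGFb libraries. TNFRSF1B levels at day 5 were 6.14, 6.77, 6.45, 5.82 and 6.54 CPM in Trog and 4.63, 5.59, 5.34, 4.03 and 5.2 in TrogGW. TNFRSF1B in UK replicates 1 to 4 was at 3.61, 3.87, 4.94 and 5.14 CPM, and in UK replicate 5 at 1.55. TNFRSF1B, the second TNF receptor, was lowest in FB and highest in Trog, and UK replicate 5 lay below the FB range. It rose by 1.03 ± 0.12 in Trog against TGFb (adjusted p = 1.13e-08) and by 0.67 ± 0.122 in TrogGW against TGFb (adjusted p = 1.33e-05). The rise of 0.65 ± 0.143 in TGFb against FB and the change of -0.36 ± 0.105 in TrogGW against Trog did not pass with library totals alone (0.27, adjusted p = 0.092, and -0.19, adjusted p = 0.114). UK against TGFb did not pass (0.33 ± 0.193, adjusted p = 0.159) and did without UK replicate 5 (0.51 ± 0.14, adjusted p = 0.00194). Its neighbour in the RefSeq table is TNFRSF8 (CD30). TNFRSF8 stood at 7.17, 8.11, 7.05, 7.48 and 7.58 CPM in the FB libraries and at 5.28, 4.08, 6.09, 5.45 and 5.35 in the TGFb libraries. TNFRSF8 levels at day 5 were 14.1, 14.8, 12, 13.6 and 14.3 CPM in Trog and 7.7, 7.25, 7.21, 7.43 and 7.49 in TrogGW. TNFRSF8 in UK replicates 1 to 4 was at 2.85, 3.63, 2.98 and 3.61 CPM, and in UK replicate 5 at 1.01. Trog was the highest group and UK the lowest, and TrogGW fell back into the FB range. TNFRSF8 rose by 1.39 ± 0.0897 in Trog against TGFb (adjusted p = 7.58e-14) and by 0.50 ± 0.0937 in TrogGW against TGFb, was lower with GW9662, at -0.89 ± 0.0808 (adjusted p = 2.56e-10), and fell by 0.86 ± 0.179 in UK against TGFb (-0.68 ± 0.115 without UK replicate 5).

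TNFRSF14 is the herpesvirus entry mediator, which binds LIGHT (TNFSF14), a gene at 0 counts here. TNFRSF14 stood at 4.12, 5.04, 5.12, 4.92 and 4.62 CPM in the FB libraries and at 3.58, 2.8, 3.67, 2.98 and 3.61 in the TGFb libraries. TNFRSF14 levels at day 5 were 16.9, 19.7, 18.1, 13.1 and 17.7 CPM in Trog and 10.5, 10.6, 12.1, 11.2 and 11.6 in TrogGW. TNFRSF14 in UK replicates 1 to 4 was at 10.3, 13.3, 11.3 and 11.3 CPM, and in UK replicate 5 at 22.2. The day-5 groups lay above FB and TGFb without overlap. TNFRSF14 rose by 2.35 ± 0.111 in Trog against TGFb (adjusted p = 6.89e-17), 1.74 ± 0.113 in TrogGW against TGFb (adjusted p = 6.55e-14) and 2.03 ± 0.171 in UK against TGFb (adjusted p = 7.68e-10, and 1.79 ± 0.12 without UK replicate 5), and was lower with GW9662, at -0.61 ± 0.0891 (adjusted p = 9.87e-07). TNFRSF13C is the BAFF receptor, best known from B cells. TNFRSF13C stood at 5.32, 4.78, 5.12, 5.04 and 5.5 CPM in the FB libraries and at 1.09, 1.64, 2.03, 1.42 and 1.37 in the TGFb libraries. TNFRSF13C levels at day 5 were 7.56, 8.88, 6.86, 6.79 and 10.6 CPM in Trog and 5.44, 3.63, 2.79, 3.85 and 3.81 in TrogGW. TNFRSF13C in UK replicates 1 to 4 was at 2.46, 3.23, 3.75 and 2.98 CPM, and in UK replicate 5 at 5.12. TGFb was the lowest group without overlap, and Trog the highest without overlap. TNFRSF13C fell by 1.76 ± 0.191 in TGFb against FB (adjusted p = 8.1e-09), rose by 2.41 ± 0.179 in Trog against TGFb (adjusted p = 1.5e-12), 1.36 ± 0.193 in TrogGW against TGFb and 1.19 ± 0.21 in UK against TGFb (1.03 ± 0.211 without UK replicate 5), and was lower with GW9662, at -1.06 ± 0.142 (adjusted p = 2.78e-07). TNFRSF21 stood at 451, 416, 439.5, 424 and 450.5 CPM in the FB libraries and at 251, 233, 236, 252 and 238 in the TGFb libraries. TNFRSF21 levels at day 5 were 188, 200.3, 188, 178 and 181 CPM in Trog and 117, 97.2, 82, 86.8 and 100.4 in TrogGW. TNFRSF21 in UK replicates 1 to 4 was at 146, 163, 159.6 and 172 CPM, and in UK replicate 5 at 175. The TNFRSF21 groups did not overlap, in the order FB, TGFb, Trog, UK and TrogGW from high to low. TNFRSF21 is death receptor 6. TNFRSF21 fell by 0.85 ± 0.065 in TGFb against FB (adjusted p = 9.53e-12), fell by 1.33 ± 0.0664 in TrogGW against TGFb (adjusted p = 2.07e-16) and fell by 0.57 ± 0.0786 in UK against TGFb (-0.60 ± 0.07 without UK replicate 5), and was lower with GW9662, at -0.95 ± 0.0659 (adjusted p = 1.21e-12). Its change of -0.37 ± 0.065 in Trog against TGFb turned to 0.31, adjusted p = 2.11e-05 with library totals alone. TNFRSF25, death receptor 3, rose from 0.81 ± 0.195 CPM in TGFb to 1.46 ± 0.369 in Trog (0.84 ± 0.231), 3.44 ± 0.656 in TrogGW (2.08 ± 0.205) and 1.82 ± 0.543 in UK (1.15 ± 0.241, and 1.06 ± 0.256 without UK replicate 5). TNFRSF19 (TROY) fell from 1.6 ± 0.175 CPM in TGFb to 0.162 ± 0.114 in Trog (-3.25 ± 0.315) and 0.34 ± 0.108 in TrogGW (-2.20 ± 0.269), and overlaps MIPEP, which had 2113 counts in TGFb and 2337 in Trog.

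**Figure D3:**
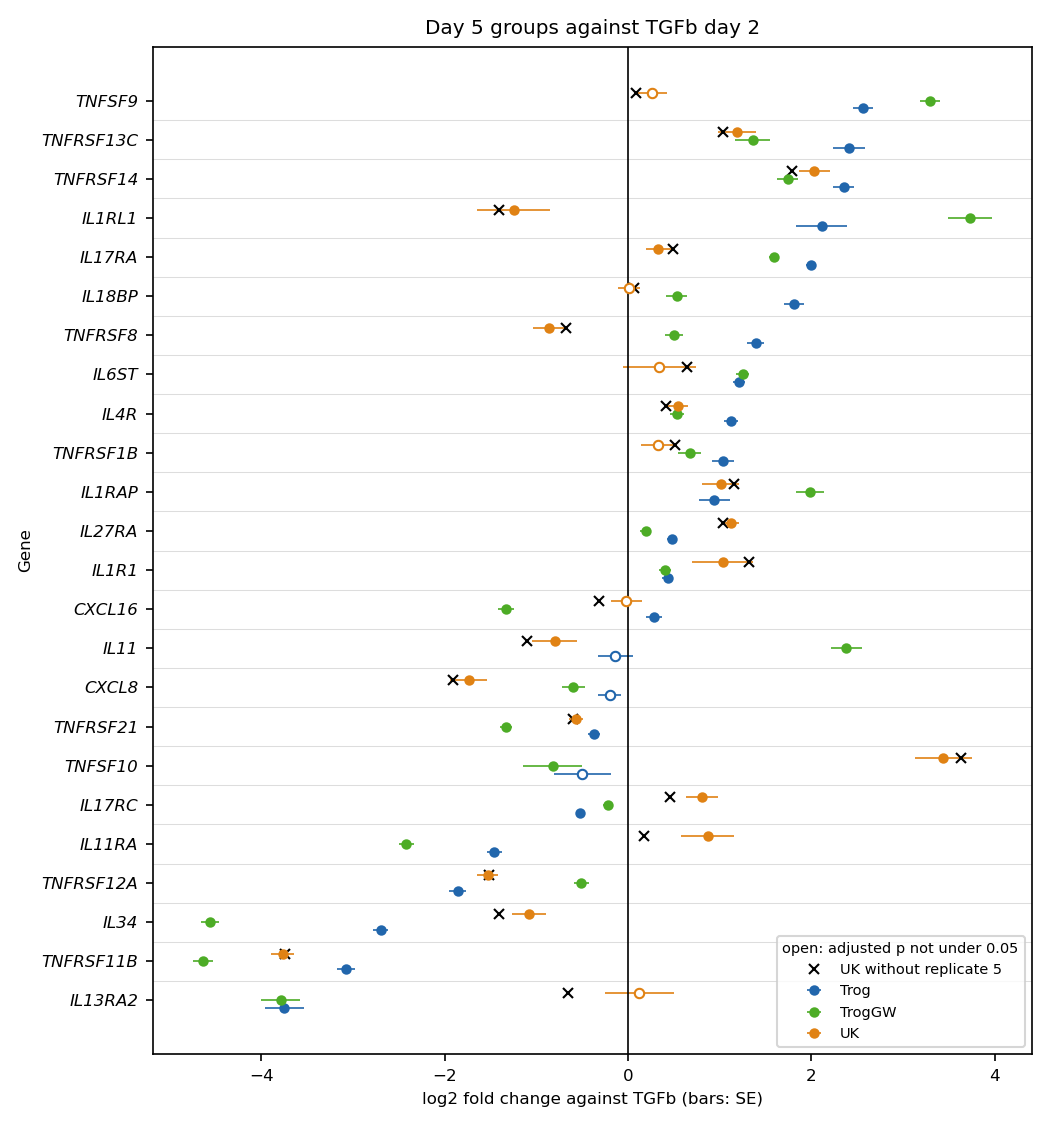
Log2 fold change (points) ± SE (bars) of Trog, TrogGW and UK against TGFb for the 24 members with at least 5 CPM in a group and a called change of at least 2-fold in some comparison (open points did not pass the test, crosses give UK without replicate 5). TNFSF10 is far to the right in UK and left of 0 in the other 2, and the cross is apart from the UK point for IL13RA2 and IL11RA.

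**Figure D4:**
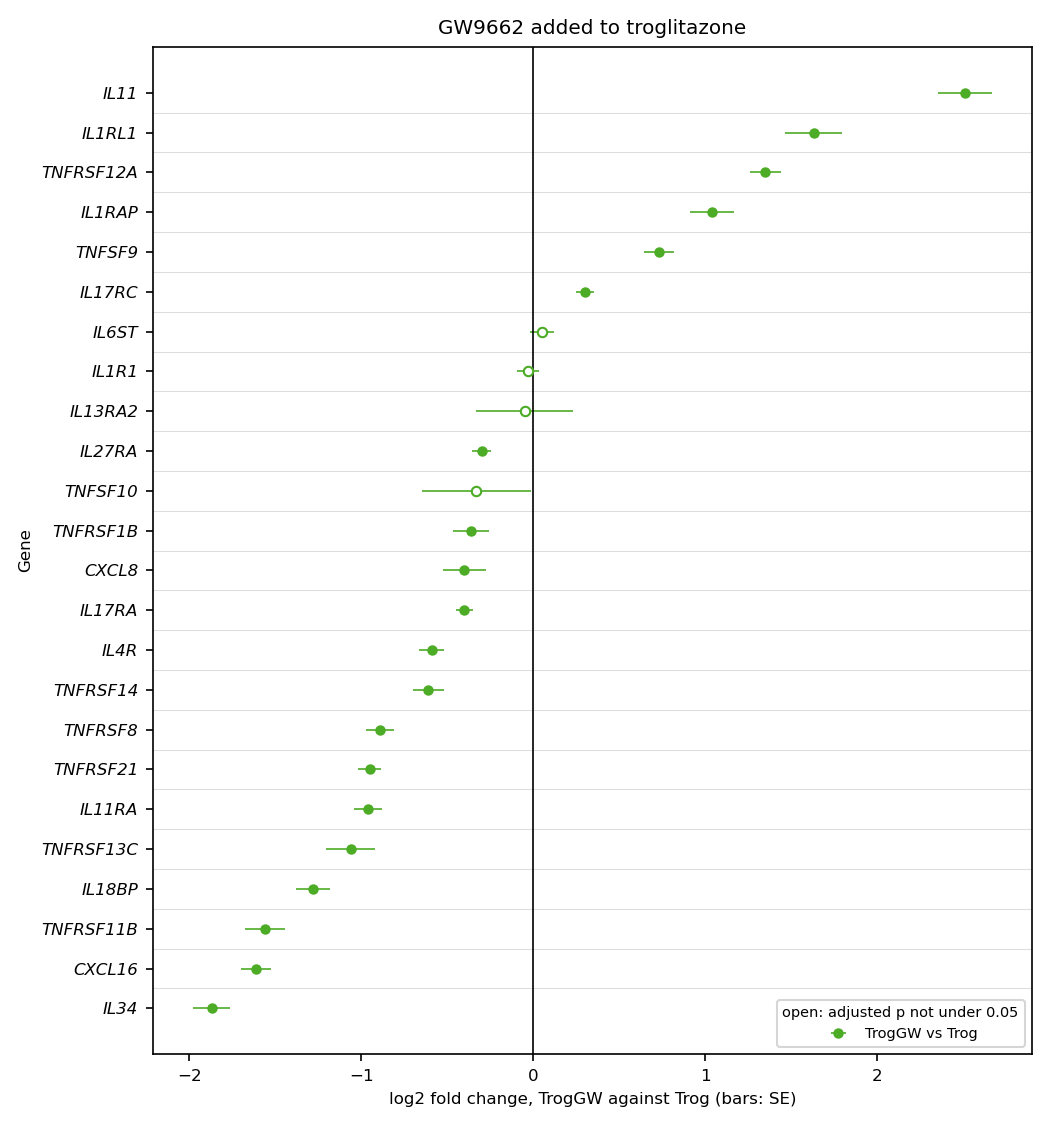
Log2 fold change (points) ± SE (bars) of TrogGW against Trog for the same 24 genes, ordered by size; open points did not pass the test. IL11 lies farthest to the right at 2.51 and IL34 farthest to the left at -1.87.

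The signalling genes downstream of these receptors were described from lists of known pathway genes. Of NF-kB subunits, inhibitors and feedback genes, 14 of 22 rose and 2 fell in Trog against TGFb (median log2 fold change 0.78, beside 0.04 over all genes, of which 42.2% were higher and 39.3% lower). The subunit REL rose by 4.29 ± 0.158 and TNFAIP2 by 1.89 ± 0.0643, and with library totals alone 19 rose and 0 fell. In TrogGW against TGFb 14 of 22 rose and 5 fell, beside 46.7% of all genes higher and 39.4% lower, with REL at 3.88 ± 0.16. In TrogGW against Trog 4 of 22 rose and 10 fell, beside 36.3% and 35.4%, the subunit RELB among the latter (-1.10 ± 0.0775). In UK against TGFb 10 of 22 rose and 7 fell, beside 28% and 22.5%, and 10 and 8 without UK replicate 5, beside 36.1% and 35.3%. In UK against Trog 0 of 22 rose and 13 fell, beside 32.9% and 28.2%, with 0 and 16 without UK replicate 5 (beside 37.4% and 38.2%) and 0 and 20 with library totals alone. NFKBIZ, an inducible regulator, was among those lower in UK than in Trog (-2.88 ± 0.31, and -2.85 ± 0.291 without UK replicate 5). In TGFb against FB 5 of 22 rose and 10 fell, beside 32.1% and 34.8% of all genes, with TNFAIP2 at -1.41 ± 0.0642, and with library totals alone these were 0 and 17. The counts with library totals alone or without UK replicate 5 for these lists were chosen after seeing the data. With library totals alone, 81.5% of all called genes were higher in Trog, 83.3% in TrogGW and 74.2% in UK against TGFb. Under that scaling these shares were 16.9% in TGFb against FB and 25.1% in UK against Trog.

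Of TNF receptor adaptors and death signalling genes, 9 of 12 rose and 1 fell in Trog against TGFb and 9 of 12 rose and 3 fell in TrogGW against TGFb, or 11 and 1 and 11 and 1 with library totals alone. Of all genes 81.5% and 86.1% were called in these comparisons, so that the share of the list called in Trog is near that of all genes. TRAF2 rose by 1.98 ± 0.107 and 2.14 ± 0.106, and CFLAR, an inhibitor of caspase 8, by 1.51 ± 0.0685 and 1.69 ± 0.0682. TRAF5, another TRAF adaptor, went the other way, with 1.17 ± 0.103 in TGFb against FB, -2.69 ± 0.114 in Trog and -2.26 ± 0.109 in TrogGW against TGFb. Of IL-1 and Toll receptor signalling genes, 9 of 12 rose and 2 fell in Trog against TGFb, beside 42.2% and 39.3% of all genes, or 11 and 1 with library totals alone. The kinases IRAK1 (1.06 ± 0.0523) and IRAK2 (2.07 ± 0.129) were among those that rose, while MAP3K8 fell (-1.84 ± 0.103) after a rise of 1.85 ± 0.106 in TGFb against FB. Of JAK-STAT and SOCS genes, 12 of 23 rose and 7 fell in Trog, 14 of 23 rose and 7 fell in TrogGW and 7 of 23 rose and 2 fell in UK against TGFb. All genes were called at 81.5%, 86.1% and 50.5%, so that the share of the list called in Trog is near that of all genes. With library totals alone the list's counts were 20 and 3, 19 and 2 and 11 and 2. Without UK replicate 5 they were 14 and 5 in UK, beside 36.1% and 35.3% of all genes. SOCS7 rose by 2.02 ± 0.0682 in Trog and SOCS5 fell (-1.11 ± 0.0492), and SOCS3, a feedback inhibitor of gp130, rose by 1.53 ± 0.164 in TGFb against FB and fell in UK against TGFb (-2.33 ± 0.352, and -2.21 ± 0.303 without UK replicate 5).

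Of gp130 and haematopoietic cytokine genes without an IL symbol, 8 of 13 rose and 2 fell in Trog, 9 of 13 rose and 3 fell in TrogGW and 6 of 13 rose and 3 fell in UK against TGFb, with medians of 0.99, 1.39 and 0.53 beside 0.04, 0.09 and 0.09 over all genes. Of all genes 81.5%, 86.1% and 50.5% were called. The counts of the list in UK were 7 and 4 without UK replicate 5, beside 36.1% and 35.3% of all genes. LIF, a ligand of the gp130 and LIFR pair, rose by 1.78 ± 0.254 in TGFb against FB and fell in Trog (-2.03 ± 0.253) and in UK (-3.34 ± 0.321, and -3.49 ± 0.311 without UK replicate 5) against TGFb, and LIFR rose in TrogGW (2.07 ± 0.071). Of TNF family members without the family symbol, 4 of 6 rose and 0 fell in Trog against TGFb (42.2% and 39.3% of all genes), where CD40, a costimulatory receptor, was at 1.85 CPM in Trog and 0 in TGFb. RELT was higher in TrogGW than in Trog by 3.04 ± 0.178 and NGFR by 3.66 ± 0.269. Of the other chemokines and decoy chemokine receptors, 2 of 5 rose and 2 fell in Trog against TGFb (beside the same shares), with the scavenger receptor ACKR3 falling from 102 to 5.25 CPM (-4.26 ± 0.111) after a rise of 0.87 ± 0.0895 in TGFb against FB, and the membrane-bound chemokine CX3CL1 rising by 0.46 ± 0.068.

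The remaining 63 members did not pass the filter. Of these, 23 had no count in any library, among them IL2, IL4, IL5, IL9, IL21, IL22, IL31, IL7R, IL2RA, IL23R, CXCR3, CXCR5, CXCR6, CCR3, CCR8, TNFSF8, TNFSF14 and TNFRSF13B; a count of 0 over a group allows up to 3 counts, which is 0.023 CPM in TrogGW to 0.0374 CPM in TGFb. A further 21 had 1 to 9 counts in all, IL1B with 4 counts among them, and 19 had between 10 and 117. Together the untested members took 115 counts in FB, 111 in TGFb, 242 in Trog, 343 in TrogGW and 126 in UK. A count in at least 1 library of the group was seen for 72 of 118 members in FB, 71 in TGFb, 77 in Trog, 90 in TrogGW and 76 in UK, or 60.2% in TGFb and 76.3% in TrogGW, while over all genes it was 85.9% and 91.5%. Among the scarce members, IL25 had 35 of its 44 counts in TrogGW, CCR1 had 18 of 21 in Trog, and CCL8, a monocyte chemokine, had 28 in Trog, 24 in TrogGW and 4 in UK of 56. All 4 UK counts of CCL8 were in UK replicate 5, and its TrogGW libraries held 9, 8, 6, 1 and 0. IL15 had 23 counts in FB and 2 in TGFb, and CCR10 had 34 of its 71 counts in TGFb. These floors and intervals cover counting error only, and these 5 scarce members were picked for mention after their counts were seen.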

How the data were processed

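Polyadenylated RNA of 25 libraries (TruSeq Stranded mRNA kit, NovaSeq6000, per the labels' protocols) had been counted per gene by the authors, and the deposited files hold raw whole-number counts for 13949 gene symbols in each library. The submitters' processing notes list fastp 0.23.1, STAR 2.7.9a, Subread 2.0.1 with featureCounts and Salmon 1.5.2 without their roles. The genome build, annotation and strand setting are not given in the sources used here, so reads of overlapping genes cannot be told apart, and 9 tested members overlap another protein-coding gene in the RefSeq table of F.catus_Fca126_mat1.0, which held all 118 members and was used for names and neighbours only.

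Counts were tested in edgeR 4.0.16 (R 4.3.3) with the quasi-likelihood F test, TMM scaling and filterByExpr (minimum count 10, minimum total 15) over all libraries, with Benjamini-Hochberg adjustment over 10699 genes at a threshold of 0.05. The 4 comparisons without UK were fitted on the 20 other libraries, because UK replicate 5 stood apart, and the 2 with UK on all 25. The SE is the size of the log2 fold change divided by the square root of F. Members described with every library had a mean of at least 5 CPM in a group and a called log2 fold change of at least 1 in size in some comparison. The members and gene lists were chosen with earlier results of these data known. Depth was 14.8 to 25.2 M counts, and no pair of libraries agreed within counting noise (lowest chi-square per degree of freedom 3.291). The script was tested on simulated data for TGFb against FB over 10699 genes: all 100 genes given a 2-fold change were recovered, as were 95 of the 100 given 1.5-fold, and 9 of 10499 unchanged genes were called. The 200 changed genes had a mean of at least 1 CPM, with as many rises as falls, and the library scaling was taken as known. The recovery thus does not cover scarcer members, changes as widespread as in these data or the choice of scaling. DESeq2 1.42.0, its size factors in edgeR, library totals alone, no filter, other sets of libraries in the fit, a replicate block and leaving out each library were the alternatives. Figures were drawn with matplotlib 3.10.9. Values of some genes are not reported here.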

Additional observations from a re-analysis of the deposited data

Results flagged for a closer look

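In each group of 5 libraries the gap of the highest or lowest library to its nearest neighbour was compared with the range of the group (Dixon's ratio, critical value 0.71) for the 24 members described with every library. This singled out 13 of 120 groups, where chance gives about 1 in 20, and 10 of the 13 were UK replicate 5. That library was the highest of its group for CXCL16 (242 CPM), IL11 (4.76 CPM), IL11RA (497 CPM), IL13RA2 (61.3 CPM), IL17RC (199 CPM), IL34 (40.3 CPM) and TNFRSF14 (22.2 CPM). It was the lowest for IL17RA (22.3 CPM), IL1R1 (5.95 CPM) and IL6ST (14.2 CPM). The other 3 were FB replicate 2 for IL17RA, lowest at 34.6 CPM, TrogGW replicate 1 for IL1R1, highest at 42.5 CPM, and TGFb replicate 1 for IL1RL1, highest at 0.546 CPM.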

How the results depend on the processing

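With library totals alone in place of TMM, 8 members rose in TGFb against FB (16 with TMM), 9 fell in TrogGW against TGFb (19) and 10 were higher in UK than in Trog (17). That scaling also turned the direction of IL11RA in TGFb against FB (-0.19), of CXCL8 (0.49), IL11 (0.55), IL17RC (0.16) and TNFRSF21 (0.31) in Trog against TGFb, of CXCL8 (0.25), IL17RC (0.63), TNFRSF12A (0.35) and TNFSF10 (0.02) in TrogGW against TGFb, and of TNFRSF12A in UK against Trog (-0.13). With all 25 libraries in 1 fit, 9 members rose in TGFb against FB and 15 fell in TrogGW against Trog (23 without the UK libraries), with log2 fold changes that stayed nearly the same while the shared estimate of the spread then included UK replicate 5.

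Leaving out 1 library moved IL13RA2 in UK against TGFb between -0.66 (without UK replicate 5) and 0.29 (without UK replicate 2). No count of members moved by over 1.5 times in these fits, in DESeq2, without the filter or with only the 2 groups compared. Of the fits of a described member with 1 library left out, 1386 kept direction and side of the threshold, 39 lost the call, 14 gained one and 1 turned. Under the other settings these were 949, 35, 14 and 10.

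Replicate numbers are shared between groups, but same-numbered libraries deviated together in only some pairs (correlations of -0.306 to 0.481 across genes). The deviations were taken from group means, which in UK include replicate 5, and the labels name no donors. Whether same-numbered libraries share more than a number thus cannot be told from these values. With the replicate block 20 members rose in UK against TGFb, 15 in TrogGW against Trog and 16 in UK against Trog (26 fell), and the counts of the other comparisons were as without it. Of all 10699 genes tested, 2715 rose in UK against TGFb (2996 without the block) and 3869 in TrogGW against Trog (3883 without it). In UK against Trog 3307 genes were higher and 3019 lower with the block (3517 and 3017 without it). The block ended the call of IL17RA in UK against TGFb (0.31) and gave calls to TNFRSF12A in TGFb against FB (-0.18) and TNFRSF14 in UK against Trog (-0.35).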
